A study of Mus musculus with 16 samples.

Results

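The genes described here are 8 long noncoding RNA genes, Malat1, Neat1, Meg3, Rian, H19, Kcnq1ot1, Gas5 and Snhg1, named as a set and found in the deposited count table by their Ensembl identifiers. All 8 were present among the table's 48709 genes and all 8 passed the filter on low counts in every comparison. Bulk RNA-seq had been made from hearts and livers of female C57BL/6J mice aged 3 to 6 months. The QKO mice, a quadruple knockout (Msra, Msrb1, Msrb2 and Msrb3 are the known mouse genes of this family), lack the methionine sulfoxide reductases, enzymes that return oxidised methionine to methionine. The WT mice carried no knockout, and no animal was treated. There were 4 QKO hearts, 4 WT hearts, 4 QKO livers and 4 WT livers, and heart and liver of the same number came from the same animal. How the alleles were made is not given in the sources used here. Libraries were made from total RNA after depletion of ribosomal RNA, without selection for poly(A) tails, so nuclear and non-polyadenylated transcripts were also sampled.

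Long noncoding RNAs act as RNA and are not translated. Malat1 is retained in nuclear speckles, the bodies that store splicing factors, and Neat1 is the scaffold around which paraspeckle proteins gather. Meg3 and Rian are transcribed from the maternal copy of the Dlk1-Dio3 imprinted region, and Rian carries many C/D box small nucleolar RNAs (snoRNAs) in its introns. H19 is expressed from the maternal copy beside Igf2, is high in fetal tissues and in skeletal muscle, and holds the precursor of a microRNA. Kcnq1ot1 is the paternally expressed antisense transcript of Kcnq1 that silences its neighbours in cis. Gas5 and Snhg1 are snoRNA host genes whose transcripts begin like the mRNAs of ribosomal proteins, with a 5′ terminal oligopyrimidine (TOP) tract, and whose spliced RNA is degraded by nonsense-mediated decay.

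In the GENCODE M21 annotation of GRCm38 (mm10), Malat1 (ENSMUSG00000092341) lies on the minus strand at chr19:5795690-5802672 and Neat1 (ENSMUSG00000092274) on the same strand at chr19:5824708-5845478. Snhg1 (ENSMUSG00000108414) lies on the same chromosome, on the plus strand at chr19:8723475-8726443. Meg3 (ENSMUSG00000021268) and Rian (ENSMUSG00000097451) follow each other on the plus strand at chr12:109541001-109571726 and chr12:109603940-109661716. H19 (ENSMUSG00000000031) lies at chr7:142575529-142578143 and Kcnq1ot1 (ENSMUSG00000101609) at chr7:143203458-143296549, both on the minus strand, the second inside the span of Kcnq1. Gas5 (ENSMUSG00000053332) lies on the plus strand at chr1:161034422-161038539.

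The start regions of Gas5, Snhg1 and Meg3 are shown because Gas5 and Snhg1 differed from the other members in the direction of their tissue difference. Each stretch holds the 40 bases before the RefSeq start and the first 20 bases of the transcript, on the transcript strand of GRCm38.p6. Capitals mark TATA letters before the start and, for Gas5 and Snhg1, the run of C and T that opens the transcript.
Gas5, chr1:161035126-161035185, plus strand: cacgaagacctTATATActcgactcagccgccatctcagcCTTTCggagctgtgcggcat
Snhg1, chr19:8723447-8723506, plus strand: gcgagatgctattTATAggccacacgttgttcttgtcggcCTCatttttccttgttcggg
Meg3, chr12:109540956-109541015, plus strand: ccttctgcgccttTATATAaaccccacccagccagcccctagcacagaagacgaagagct
The letters TATA, searched on the transcript strand only, begin 29 bases before the start of Gas5 and 27 before those of Snhg1 and Meg3. They occur in the same window of 7.63% of 32851 RefSeq starts, and not in that of Malat1. A run of at least 3 pyrimidines opens 10.7% of those starts, and a run of at least 5, as in Gas5, opens 4.44%. The start shown for Snhg1 opens with 3 pyrimidines only, and does not by itself show a TOP tract. Of the annotated GENCODE transcripts, 13 of 25 for Gas5 and 3 of 18 for Snhg1 begin within 20 bases of the start shown.

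Snord22, a C/D box snoRNA encoded inside Snhg1, is shown because in 15 of 16 libraries most counts of Snhg1 were also counts of Snord22. It spans 126 bases, and capitals mark the letters CTGA of the D box, which has 2 matches, the second beginning at base 118 near the 3′ end.
Snord22, chr19:8725866-8725991, plus strand, GRCm38 (GENCODE M21): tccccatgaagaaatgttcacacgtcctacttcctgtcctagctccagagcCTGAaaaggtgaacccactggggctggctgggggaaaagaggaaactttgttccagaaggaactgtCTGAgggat
CTGA occurs in 79.5% of 1507 annotated mouse snoRNA transcripts, and the C box letters TGATGA, which Snord22 lacks in that exact form, in 26.1%. The microRNA inside H19 is shown because its precursor interval is counted within H19. Its 2 mature arms have different seeds (bases 2 to 8, in capitals; RefSeq, GRCm38.p6).
mmu-miR-675-5p, chr7:142577112-142577133, minus strand: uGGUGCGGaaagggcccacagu
mmu-miR-675-3p, chr7:142577078-142577099, minus strand: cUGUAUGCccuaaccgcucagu

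Libraries held between 37.9 and 72.6 M counts. Ribosomal RNA loci took 31.4 to 56.9% of counts in 6 hearts, 0.252% in QKO heart 4 and 7.37% in WT heart 4, against 0.315 to 0.98% in livers, and mitochondrial genes took 24.7 to 60.4% in hearts and 17.2 to 31.4% in livers. Levels are therefore given as CPM, the count over the library total in M, after scaling by trimmed means over all 16 libraries (TMM), and levels of different genes are also given per kilobase of annotated exon, since CPM grows with the length of a gene. Labels were checked on the targeted genes: Msrb2 lay at 0.116 to 0.23 CPM in QKO hearts against 12 to 14.6 CPM in WT hearts, and at 0 to 0.046 CPM in QKO livers against 2.52 to 6.24 CPM in WT livers. Msrb3 lay at 7.43 to 8.69 CPM in QKO hearts against 46.4 to 50.3 CPM in WT hearts, and at 1.68 to 3.07 CPM in QKO livers against 7.78 to 10.8 CPM in WT livers. Msra averaged 7.16 ± 0.375 CPM in QKO hearts and 10.3 ± 0.777 CPM in WT hearts, and 33.9 ± 2.17 CPM in QKO livers and 55.5 ± 5.92 CPM in WT livers (SD, n = 4 each). Msrb1 was higher in QKO hearts, at 21 ± 2.11 CPM against 15.2 ± 1.03 CPM in WT hearts (log2 difference 0.48, SE 0.08, edgeR adjusted p = 0.0337), and averaged 75.6 ± 18.5 CPM in QKO livers and 98.5 ± 10.9 CPM in WT livers. The deleted exons are not given in the sources used here, so counts over the whole of Msra and Msrb1 cannot check the labels. All 10 cardiomyocyte and all 9 hepatocyte markers were detected in their own tissue: cardiomyocyte genes summed to 16500 to 20800 CPM in hearts and hepatocyte genes to 33300 to 46800 CPM in livers.

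The name abundant held for some members only. The ribosomal RNA loci were left out before ranking. Of these, Gm26917 averaged 3610 CPM in QKO livers and 2520 CPM in WT livers, above Malat1 there. Gm42418 averaged 162000 CPM in QKO hearts and 219000 CPM in WT hearts. Ranks and shares hold only for the remaining 7359 annotated long noncoding genes. Among these, ranked by mean CPM, which favours long genes, Malat1 was second in hearts of both genotypes, behind Gm15564. It was first in livers of both genotypes. Per kilobase it ranked 3 in hearts of both genotypes, 18 in QKO livers and 12 in WT livers. Malat1 alone took 11.2% of the summed CPM of these genes in QKO hearts, 10.2% in WT hearts, 6.15% in QKO livers and 7.99% in WT livers. The heart sums hold Gm15564 at 10400 CPM in QKO and 15200 CPM in WT, a gene not among the 10 highest in livers. Heart and liver shares, and those of QKO and WT hearts, are thus not on a like base. Neat1 ranked 3 or 4 in hearts and 10 or 12 in livers by CPM, and per kilobase 52 in QKO hearts, 51 in WT hearts, 146 in QKO livers and 192 in WT livers. Kcnq1ot1 ranked 13 or 14 in hearts and 30 or 40 in livers by CPM, but it is annotated as a single 93092-base exon and per kilobase it ranked between 838 and 1138. By CPM Meg3 ranked 766 in QKO hearts, 630 in WT hearts, 1475 in QKO livers and 1276 in WT livers, H19 ranked between 234 and 979, and Rian between 239 and 1224.

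Per kilobase, the order of the members was Malat1, Neat1, Gas5, Snhg1, H19, Kcnq1ot1, Rian and Meg3 in QKO hearts as in WT hearts. In QKO hearts the per-kilobase levels were 295 ± 39.3 CPM for Malat1, 12.6 ± 3.58 for Neat1, 2.38 ± 0.315 for Gas5, 1.67 ± 0.218 for Snhg1, 1.3 ± 0.439 for H19, 0.65 ± 0.077 for Kcnq1ot1, 0.2 ± 0.0107 for Rian and 0.0625 ± 0.0106 for Meg3 (SD, n = 4). Snhg1 and H19 did not differ beyond their spread in hearts. In QKO livers Malat1 stood at 79.7 ± 16.1 CPM per kilobase, and Snhg1 at 6.91 ± 2.36, Neat1 at 6.49 ± 5.64 and Gas5 at 5.45 ± 1.34 lay within 1 SD of each other. Kcnq1ot1 at 0.34 ± 0.0791 and H19 at 0.274 ± 0.201 also overlapped in QKO livers, and Rian at 0.0222 ± 0.0116 and Meg3 at 0.014 ± 0.0069 closed the order. The Snhg1 levels include the counts of Snord22 inside it. Not divided by length, Snhg1 averaged 4.95 ± 0.649 CPM in QKO hearts and 20.5 ± 7.01 CPM in QKO livers. Without Snord22 it averaged 1.73 ± 0.252 and 4.5 ± 1.19 CPM, so its place in the order depends on that snoRNA.

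**Figure D1:**
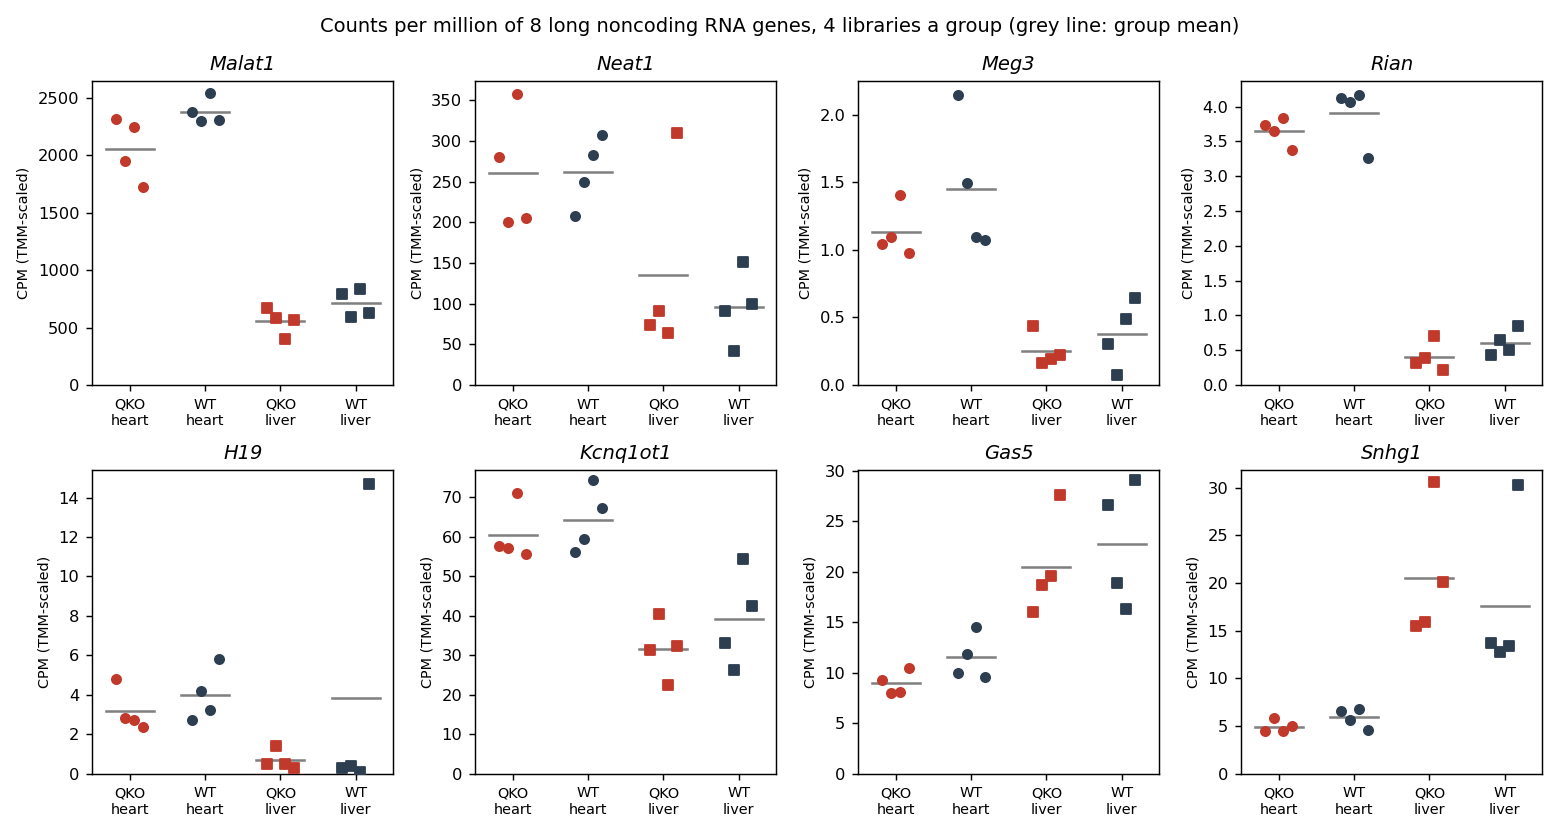
TMM-scaled CPM (vertical axis, from 0) of the 8 genes in each library, QKO in red and WT in dark blue, hearts as circles and livers as squares, with a grey line at each group mean. Malat1, Rian and Meg3 lie higher in every heart than in every liver, Gas5 and Snhg1 lower, and QKO and WT ranges overlap in each tissue.

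Heart and liver differed in 7 of 8 members in QKO mice, 5 higher and 2 lower in heart, and in 7 of 8 in WT mice, again 5 higher and 2 lower. Most genes differ between these organs: 74.3% of 18039 genes tested passed an adjusted p of 0.05 in QKO mice (37.2% higher and 37.1% lower in heart) and 72.5% of 18204 in WT mice (35.6% higher and 36.9% lower). The members' share is thus close to that background. The median log2 difference of the members, heart over liver, was 1.45 in QKO mice and 1.09 in WT mice, beside 0.01 and -0.02 over all genes tested. In whole organs, fewer cells of a type and less RNA per cell cannot be told apart.

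Malat1 and Neat1, the nuclear body RNAs, were higher in heart. Malat1 measured 2315, 1948, 2247 and 1723 CPM in the 4 QKO hearts against 675, 585, 405 and 562 CPM in the QKO livers. It measured 2376, 2295, 2540 and 2304 CPM in WT hearts against 795, 588, 836 and 626 CPM in WT livers. No heart overlapped a liver, and the log2 difference was 1.92 (SE 0.21, 3.78-fold, adjusted p = 2.74e-06) in QKO mice and 1.75 (SE 0.22, 3.37-fold, adjusted p = 3.07e-05) in WT mice.

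Neat1 measured 280, 200, 358 and 205 CPM in QKO hearts against 74.3, 91.4, 63.8 and 310 CPM in QKO livers. QKO liver 4 lay among the hearts, and the difference of 0.99 (SE 0.43, log2) had an adjusted p of 0.0563. With the animal as a block the same difference was 1.30 with an adjusted p of 0.00766, and without QKO animal 4 it was 1.89 with an adjusted p of 2.83e-05. In WT mice Neat1 measured 208, 249, 283 and 307 CPM in hearts against 91.1, 42.5, 152 and 99.7 CPM in livers, with no overlap and a log2 difference of 1.46 (SE 0.32, adjusted p = 0.00183).

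The count of Neat1 as a share of that of Malat1, its neighbour 22036 bases away on the same strand, needs no scaling of libraries. It was 0.55 in QKO liver 4 and between 0.0721 and 0.181 in the other 15 libraries. QKO liver 4 therefore stood apart in Neat1 against Malat1 as well as in its scaled level.

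Of the proteins that work with these RNAs, 10 of 22 paraspeckle genes tested were higher and 5 lower in heart in QKO mice, and 9 higher and 5 lower in WT mice, with median log2 differences of 0.13 and 0.11. The RNA-binding protein gene Hnrnph3 was 1.38 (SE 0.21) higher in heart on the log2 scale in QKO mice and 1.37 (SE 0.17) in WT mice. Of 22 nuclear speckle genes, 9 were higher and 5 lower in QKO hearts, and 6 higher and 5 lower in WT hearts. The speckle protein gene Srrm2 was 1.38 (SE 0.11) higher in QKO hearts and 1.32 (SE 0.20) in WT hearts, on the log2 scale. Of 11 RNA processing genes listed for Malat1 and tested, 4 were higher and 3 lower in heart in each genotype. Their median log2 differences were 0.08 in QKO mice and -0.14 in WT mice. Among them Drosha, an RNase that cuts microRNA precursors, was 2.36 higher in heart in each genotype (SE 0.14 in QKO mice, SE 0.12 in WT mice), on the log2 scale. Rpp40 went the other way in WT mice, at -1.21 (SE 0.20). The paraspeckle and speckle directions rest on the scaling: with library totals and no scaling factors, 1 paraspeckle gene was higher and 6 lower in QKO hearts and 0 higher and 11 lower in WT hearts, and 0 speckle genes were higher with 7 lower in QKO hearts and 14 lower in WT hearts. Of all genes, 17.4% were higher and 46.1% lower in QKO hearts under that setting, and 13.9% higher and 50.8% lower in WT hearts.

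Meg3 and Rian, from the imprinted region on chromosome 12, were near the limit of detection in liver. Meg3 had 10 to 38 counts in QKO livers and 7 to 45 counts in WT livers, and Rian had 18 to 36 and 21 to 59 counts. Rian was expressed at 3.37 to 3.83 CPM in QKO hearts against 0.211 to 0.702 CPM in QKO livers, a log2 difference of 3.26 (SE 0.29, 9.55-fold, adjusted p = 4.7e-07). In WT mice Rian lay at 3.25 to 4.17 CPM in hearts against 0.43 to 0.844 CPM in livers, a log2 difference of 2.69 (SE 0.23, 6.44-fold, adjusted p = 1.02e-06).

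Meg3 lay at 0.974 to 1.41 CPM in QKO hearts against 0.16 to 0.437 CPM in QKO livers, a log2 difference of 2.16 (SE 0.34, adjusted p = 7.86e-05). It lay at 1.08 to 2.15 CPM in WT hearts against 0.077 to 0.644 CPM in WT livers, a log2 difference of 1.95 (SE 0.50, adjusted p = 0.00444). The ratio of both transcripts varied less among hearts than among livers. Rian counts were 2.7 to 3.53 times Meg3 counts in QKO hearts and 1.92 to 3.76 times in WT hearts. The ratio ran between 0.714 and 3.48 in QKO livers and between 1.02 and 7.93 in WT livers, where as few as 7 counts stood behind it.

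H19 was higher in heart in QKO mice, at 4.78, 2.85, 2.74 and 2.38 CPM in hearts against 0.517, 1.4, 0.488 and 0.293 CPM in livers (log2 difference 2.24, SE 0.41, adjusted p = 2.96e-04). In WT mice it measured 2.72, 4.19, 3.25 and 5.84 CPM in hearts against 0.286, 0.374, 0.108 and 14.7 CPM in livers. WT liver 4 exceeded every heart, and the difference was 0.08 (SE 1.14, log2, adjusted p = 0.952). Without WT animal 4 it was 3.73 with an adjusted p of 3.98e-06. Igf2, the growth factor gene that shares its control region with H19, was at 2.5 to 4.33 CPM in QKO hearts and 2.67 to 4.31 CPM in WT hearts, against 0.039 to 0.196 CPM in QKO livers and 0.077 to 0.337 CPM in WT livers. WT liver 4 had the most Igf2 of the 8 livers, and QKO liver 2 the most of the QKO livers, as for H19, but on few counts: WT liver 4 had 957 H19 counts and 22 Igf2 counts, and QKO liver 2 had 114 and 16.

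H19 moved with skeletal muscle transcripts among the livers. The summed level of 13 skeletal muscle genes was 221 CPM in WT liver 4 and 18.5 CPM in QKO liver 2, and between 0.462 and 2.96 CPM in the other 6 livers. H19 was highest in the same pair of livers, at 14.7 and 1.4 CPM, and lay between 0.108 and 0.517 CPM in the other 6. All 13 muscle genes had counts in both of these livers, and Tnnt3, a fast skeletal troponin gene on the same chromosome, was at 28 CPM in WT liver 4 and 2.22 CPM in QKO liver 2. WT liver 4 also held 203 CPM of 11 pancreatic acinar genes, as did WT liver 3 with 676 CPM and an H19 level of 0.108 CPM. The part of skeletal muscle RNA in the H19 level was not tested. Hearts had muscle sums of 33 to 125 CPM, mostly of Acta1, which heart muscle also expresses, and WT heart 4 had the lowest sum and the highest H19 level of the hearts.

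**Figure D2:**
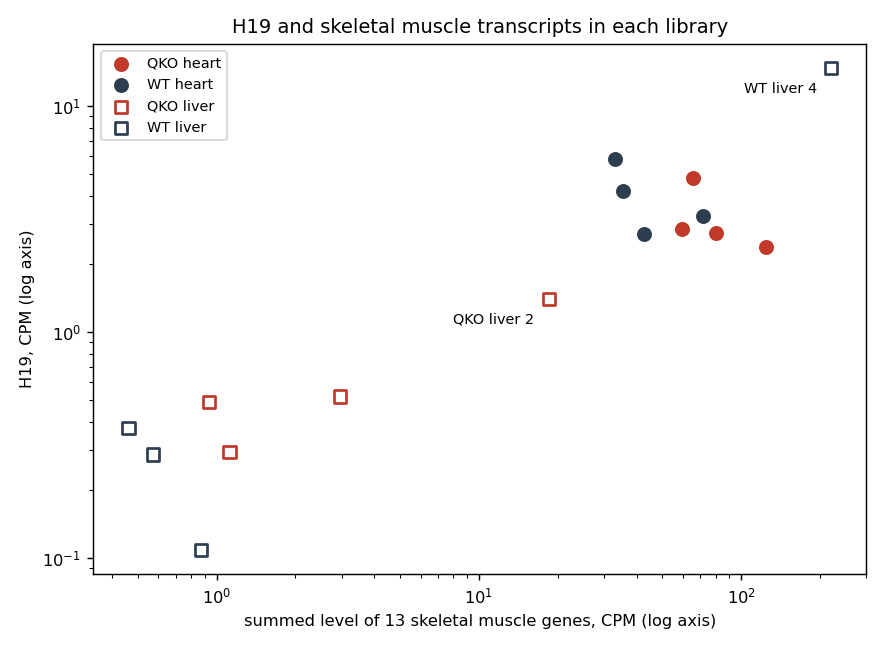
H19 level (vertical axis, CPM, log scale) against the summed level of 13 skeletal muscle genes (horizontal axis, CPM, log scale) in each of the 16 libraries, QKO in red and WT in dark blue, hearts filled and livers open. WT liver 4 stands at 14.7 CPM of H19 and 221 CPM of muscle genes, and QKO liver 2 at 1.4 and 18.5 CPM, above the other 6 livers on both axes.

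The precursor interval of miR-675, 84 bases inside H19, had 76 counts in WT liver 4 and 1 to 62 counts in the other 15 libraries. Short models annotated on the strand opposite to H19 had similar counts in that library, 82 for Gm27483 and 93 for Gm27786. Inside Malat1, Gm37376 (453 bases, opposite strand) had 27934 counts in hearts, beside 27395 for Gm27694 (86 bases, same strand). Whether the authors' counting used strand is not given in the sources used here. With such counts on both strands, the count of any gene with a partner on the other strand may hold reads of both. Reads from both strands of H19, of Malat1, and of Kcnq1ot1 and Kcnq1 cannot be told apart.

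Kcnq1ot1 was higher in heart in both genotypes, at 55.8 to 71.2 CPM in QKO hearts against 22.5 to 40.5 CPM in QKO livers (log2 difference 0.97, SE 0.16, adjusted p = 1.46e-04). It lay at 56.3 to 74.4 CPM in WT hearts against 26.3 to 54.5 CPM in WT livers (0.73, SE 0.21, adjusted p = 0.0086). This direction rests on the scaling: with library totals and no scaling factors, a setting that lowered the median of all genes by 0.72 in QKO mice and by 0.98 in WT mice, the difference was 0.20 in QKO mice and -0.26 in WT mice, with adjusted p of 0.624 and 0.566. Under the same setting Malat1, Neat1 and Meg3 stayed higher in WT hearts but had adjusted p of 0.112, 0.286 and 0.0943. Kcnq1, the potassium channel gene that contains Kcnq1ot1 on the other strand, was 3.27 (SE 0.24) higher in heart in QKO mice and 3.41 (SE 0.17) in WT mice on the log2 scale. Of 10 genes of this imprinted cluster tested, 4 were higher and 3 lower in heart in each genotype, the transporter gene Slc22a18 lower by -7.04 (SE 0.25) in QKO hearts and -6.69 (SE 0.32) in WT hearts.

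Gas5 and Snhg1 were lower in heart. Gas5 measured 9.31, 8, 8.06 and 10.5 CPM in QKO hearts against 16, 18.7, 19.6 and 27.7 CPM in QKO livers, a log2 difference of -1.16 (SE 0.17, adjusted p = 3.46e-05). It measured 10, 11.9, 14.6 and 9.62 CPM in WT hearts against 26.6, 18.9, 16.3 and 29.1 CPM in WT livers, a difference of -0.97 (SE 0.20, adjusted p = 0.00115). No heart overlapped a liver of its genotype.

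Snhg1 measured 4.5, 5.84, 4.44 and 5.01 CPM in QKO hearts against 15.5, 15.9, 30.6 and 20.1 CPM in QKO livers, a log2 difference of -2.02 (SE 0.21, adjusted p = 1.67e-06). It measured 6.58, 5.68, 6.75 and 4.58 CPM in WT hearts against 13.8, 12.8, 13.4 and 30.2 CPM in WT livers, a difference of -1.57 (SE 0.28, adjusted p = 3.93e-04). Both genes kept this direction and passed the test under each scaling tried.

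Other snoRNA hosts moved the same way: 11 of 15 tested were lower and 2 higher in heart in QKO mice, and 12 lower and 2 higher in WT mice, with medians of -1.46 and -1.59 on the log2 scale. Snhg17 was lower in heart by -3.17 (SE 0.21) in QKO mice and -3.25 (SE 0.32) in WT mice. A list of 20 TOP mRNAs held protein genes that also host snoRNAs, so it is a further set of hosts. Of these 20, 18 were lower and 1 higher in QKO hearts, and 17 lower and 1 higher in WT hearts. Eef1a1, the elongation factor that brings tRNA to the ribosome, was lower by -2.99 in each genotype (SE 0.17 in QKO mice, SE 0.21 in WT mice). This count depends on the scaling: with totals that leave out ribosomal RNA loci and mitochondrial genes and no scaling factors, 4 of the 20 were lower in QKO hearts and 6 in WT hearts. That setting raised the median of all genes to 0.73 in QKO mice and 0.52 in WT mice, with 20% and 23.2% of genes lower. The TOP medians were -0.02 and -0.27 there and -0.68 and -0.76 under TMM, below the median gene each time. With library totals and no scaling factors, 19 of the 20 were lower in each genotype, beside 46.1% and 50.8% of all genes. Of the snoRNA hosts, 11 of 15 were lower in each genotype with totals lacking ribosomal RNA loci and mitochondrial genes. Of the 14 nonsense-mediated decay genes, 6 were higher and 5 lower in QKO hearts, and 6 higher and 2 lower in WT hearts.

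Of 18 imprinted growth genes tested, 16 were higher and 0 lower in heart in QKO mice, and 15 higher and 0 lower in WT mice, with medians of 1.53 and 1.55 on the log2 scale. Airn, the long noncoding RNA of the Igf2r region, was 4.29 (SE 0.37) higher in QKO hearts and 3.96 (SE 0.31) in WT hearts. With library totals and no scaling factors, 8 of the 18 remained higher in each genotype, beside 17.4% of all genes in QKO mice and 13.9% in WT mice. Of 9 fibroblast markers, 8 were higher in heart in each genotype, and they summed to 402 to 538 CPM in hearts and 159 to 248 CPM in livers. Of 9 endothelial markers, 7 were higher and 0 lower in QKO hearts, and 6 higher and 1 lower in WT hearts. Of 8 smooth muscle and pericyte markers, 5 were higher in QKO hearts and 6 in WT hearts, and 0 lower. Of 9 macrophage markers, 0 were higher and 8 lower in each genotype. The part of these cell types in the levels of H19, Meg3 and Rian was not tested.

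**Figure D3:**
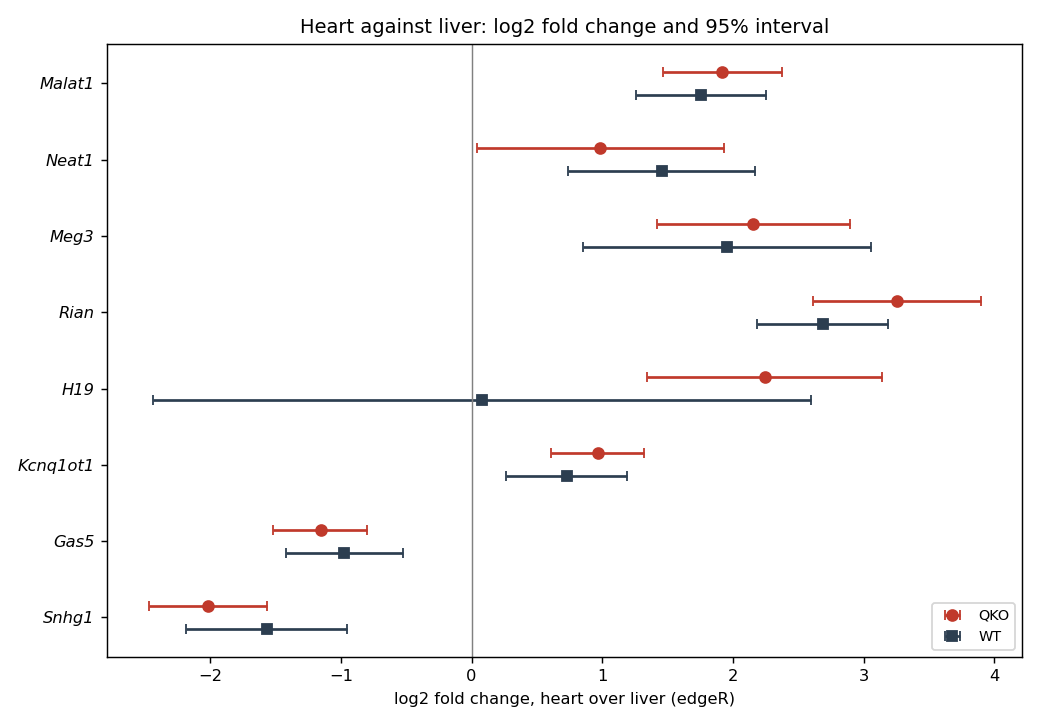
Log2 fold change of heart over liver (horizontal axis) with its 95% interval for the 8 genes, QKO as red circles and WT as dark blue squares. Malat1, Meg3, Rian and Kcnq1ot1 lie right of 0 and Gas5 and Snhg1 left of it in both genotypes (without scaling factors Kcnq1ot1 was at -0.26 in WT mice), and the interval of H19 in WT mice runs from -2.43 to 2.6.

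The knockout comparison asks whether loss of the reductases changed these RNAs. None of the 8 members passed an adjusted p of 0.05 between QKO and WT in heart or in liver, by edgeR or by DESeq2. The background was low: 0.165% of 16974 genes passed in heart (0.0707% higher and 0.0943% lower in QKO) and 0.0846% of 17738 in liver (0.0564% higher and 0.0282% lower in QKO). At an unadjusted p under 0.05, 1 member (Gas5) in heart and 0 in liver stood beside 1220 genes in heart and 583 in liver. In heart the members' log2 differences, QKO over WT, were all below 0 with a median of -0.22, beside 8553 of 16974 genes below 0 and a median of -0.0013. Neat1, at -0.01, was above 0 under 8 of 23 alternatives, and Rian and Kcnq1ot1 were above 0 without scaling factors, at 0.090 and 0.056, as was H19 without hearts 4 of both genotypes, at 0.039. Marker lists of whole cell types lay to 1 side in the same hearts with no gene past the threshold: 10 of 10 cardiomyocyte genes were above 0 (median 0.15), 9 of 9 hepatocyte genes below 0 (median -0.69) and 8 of 9 macrophage genes below 0 (median -0.32). Summed macrophage genes lay at 102 to 122 CPM in QKO hearts and 129 to 161 CPM in WT hearts, and cardiomyocyte genes at 19600 to 20800 CPM in QKO hearts and 16500 to 18100 CPM in WT hearts. Summed hepatocyte genes lay at 71.5 to 175 CPM in QKO hearts and 53.9 to 324 CPM in WT hearts. Their part in the members' differences was not tested. In liver 6 of 8 were below 0 with a median of -0.34, beside 9084 of 17738 genes and -0.0059. QKO and WT ranges overlapped for every member in both tissues, while 2.37% of genes in heart and 1.07% in liver had all 4 QKO values below all 4 WT values. A further 2.3% in heart and 1.05% in liver had all 4 QKO values above all 4 WT values.

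Malat1 averaged 2060 ± 274 CPM in QKO hearts and 2380 ± 114 CPM in WT hearts (SD, n = 4 each), a log2 difference of -0.21 (SE 0.11, 95% interval -0.45 to 0.03, adjusted p = 0.734). The QKO hearts spanned 1723 to 2315 CPM and the WT hearts 2295 to 2540 CPM. In livers it averaged 557 ± 112 CPM in QKO and 711 ± 122 CPM in WT, a difference of -0.36 (SE 0.19, interval -0.78 to 0.05, adjusted p = 1). The intervals thus include no change and, in liver, a fall of up to 0.78 on the log2 scale.

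Neat1 averaged 261 ± 74.3 CPM in QKO hearts and 262 ± 43.2 CPM in WT hearts (difference -0.01, SE 0.17, interval -0.37 to 0.36). In livers it averaged 135 ± 117 CPM in QKO and 96.2 ± 44.7 CPM in WT, a difference of 0.47 (SE 0.50, interval -0.62 to 1.56) that was -0.35 without QKO liver 4. Its coefficient of variation was 86.9% in QKO livers, where the median gene had 15.6% and 90% of genes at 1 CPM or more lay under 32.4%.

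Gas5 averaged 8.97 ± 1.19 CPM in QKO hearts and 11.5 ± 2.25 CPM in WT hearts, a log2 difference of -0.34 (SE 0.13, interval -0.63 to -0.06). It had the smallest edgeR p of the members in heart, 0.0223 before and 0.66 after adjustment over all genes tested. The QKO hearts spanned 8 to 10.5 CPM and the WT hearts 9.62 to 14.6 CPM. In livers Gas5 averaged 20.5 ± 5.02 CPM in QKO and 22.7 ± 6.08 CPM in WT, a difference of -0.16 (SE 0.22). Snhg1 differed by -0.24 (SE 0.14) in heart and by 0.22 (SE 0.31) in liver.

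The imprinted members gave wide intervals. Meg3 differed by -0.36 (SE 0.25) in heart and -0.57 (SE 0.57) in liver, and Rian by -0.09 (SE 0.12) and -0.62 (SE 0.39). Kcnq1ot1 averaged 60.5 ± 7.17 CPM in QKO hearts and 64.4 ± 8.18 CPM in WT hearts (difference -0.09, SE 0.10, interval -0.31 to 0.12), and differed by -0.32 (SE 0.23) in liver.

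H19 had the largest difference of the members in size, -2.52 (SE 1.25, interval -5.25 to 0.20, adjusted p = 1) in liver, and it rested on WT liver 4. Livers averaged 0.674 ± 0.493 CPM in QKO against 3.86 ± 7.21 CPM in WT (SD, n = 4 each), and 0.256 ± 0.136 CPM in the 3 WT livers without it. Without WT liver 4 the log2 difference was 1.405 (adjusted p = 0.893), and without QKO liver 2 as well it was 0.76 (adjusted p = 0.937). In heart H19 averaged 3.19 ± 1.08 CPM in QKO and 4 ± 1.37 CPM in WT, a difference of -0.39 (SE 0.25).

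**Figure D4:**
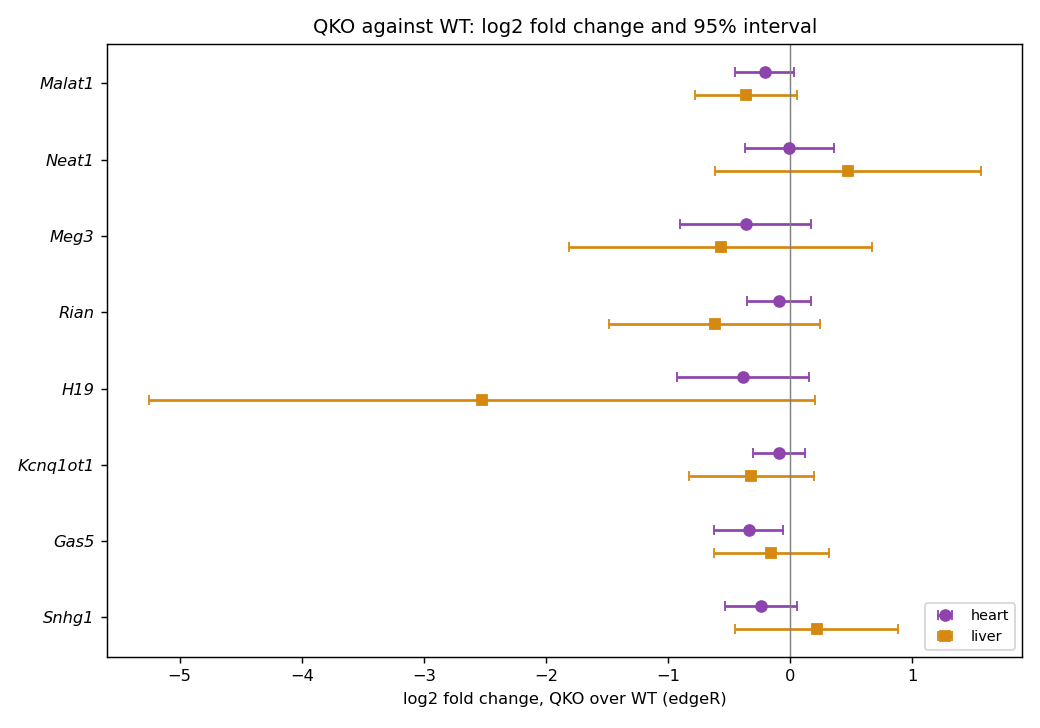
Log2 fold change of QKO over WT (horizontal axis) with its 95% interval for the 8 genes, heart as purple circles and liver as orange squares. Every interval but that of Gas5 in heart (-0.63 to -0.06) includes 0, and that of H19 in liver runs from -5.25 to 0.2.

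The genotype difference in heart was also set against that in liver in 1 model of all 16 libraries. No member passed an adjusted p of 0.05, at 0.00511% (1 of 19587) of all genes, and none had an unadjusted p under 0.05. The difference of differences, heart minus liver, lay between -0.49 (Neat1, SE 0.60) and 0.54 (Rian, SE 0.38) except for H19 at 2.14 (SE 1.39), which was -1.51 without WT animal 4.

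Ratios within a library were compared between genotypes as well. In 10 exact two-sided permutation tests over 4 QKO and 4 WT libraries, of Rian to Meg3, Neat1 to Malat1, Snhg1 to Gas5, H19 to Igf2 and Kcnq1ot1 to Kcnq1 in each tissue, the smallest p was 0.114 and no adjusted p was below 0.735. With 70 relabellings the smallest p possible is 0.0286, which for 1 ratio alone becomes 0.286 after adjustment over 10 tests, so no single ratio could have passed 0.05. That smallest p belonged to Kcnq1ot1 over Kcnq1 in liver, at a mean log2 ratio of 4.35 ± 0.40 in QKO and 4.80 ± 0.29 in WT (SD, n = 4 each).

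Genes of the same regions and pathways mostly did not pass between genotypes. In the Dlk1-Dio3, H19-Igf2 and Kcnq1 regions 0 of 16 tested genes passed in heart and 0 of 15 in liver, and neither did any of the 18 imprinted growth genes, the 15 snoRNA hosts tested in heart or 16 in liver, the 20 TOP mRNAs, the 22 paraspeckle or the 22 nuclear speckle genes. Among these, Snrpn differed by 0.34 (SE 0.11, adjusted p = 0.607) in heart and the speckle gene Pnn by -0.66 (SE 0.20) in liver. None of the 14 nonsense-mediated decay genes passed in either tissue, with 12 of 14 below 0 in heart and 7 of 14 in liver, and the decay factor gene Upf2 differed by -0.31 (SE 0.14) in heart and -0.34 (SE 0.15) in liver. Of 17 other long noncoding RNAs tested in heart, 1 passed: Mhrt, an antisense transcript of the cardiac myosin gene Myh7, averaged 157 ± 23.8 CPM in QKO hearts and 34.3 ± 5.02 CPM in WT hearts (log2 difference 2.19, SE 0.12, adjusted p = 2.12e-07). Where Mhrt and Myh7 overlap, reads of the 2 strands cannot be told apart, and the part of Myh7 reads in this difference was not tested. Klf9, a glucocorticoid-induced gene listed because Gas5 can bind the glucocorticoid receptor, had the lowest adjusted p of its 13 genes in liver, at 39.8 ± 2.45 CPM in QKO livers and 25.7 ± 0.916 CPM in WT livers (0.62, SE 0.11, adjusted p = 0.105).

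Of the tested neighbours within 100 kb, the up to 4 of highest mean CPM for each member did not pass either. Ehbp1l1, 69373 bases from Malat1 and 98391 from Neat1, differed by 0.02 (SE 0.07) in heart and 0.05 (SE 0.14) in liver. The models Gm37376 and Gm27694 inside Malat1 differed by -0.44 (SE 0.24) and -0.26 (SE 0.09) in heart. In liver they differed by -0.50 (SE 0.20) and -0.57 (SE 0.20). Beside Gas5, Zbtb37, which overlaps it on the other strand, differed by 0.01 (SE 0.08) in heart and -0.06 (SE 0.12) in liver. Slc3a2, which starts 106 bases from Snhg1, differed by 0.02 (SE 0.08) in heart and 0.02 (SE 0.13) in liver, against -0.24 and 0.22 for Snhg1 itself.

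Counts of the snoRNA hosts held the snoRNAs themselves. Snord22 had 87, 146, 101 and 254 counts in QKO hearts, where Snhg1 had 129, 203, 167 and 432, and so was 58.8 to 71.9% of the Snhg1 count. It was 48.3 to 68.8% in WT hearts, 70.5 to 84.9% in QKO livers and 67.9 to 79.8% in WT livers. Snord22 covers 126 of the 2969 annotated exonic bases of Snhg1, and carried most of its counts in every library but WT heart 4.

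Snord22 was itself lower in heart, at 3.22 ± 0.673 CPM in QKO hearts against 16 ± 6.72 CPM in QKO livers (log2 difference -2.28, SE 0.26, adjusted p = 3.56e-06), and at 3.76 ± 1.08 CPM in WT hearts against 13.4 ± 7.16 CPM in WT livers (-1.84, SE 0.34, adjusted p = 5.2e-04). Snhg1 less the snoRNA models inside it was also lower in heart, by -1.398 (adjusted p = 1.01e-04) in QKO mice and -0.94 (adjusted p = 0.00331) in WT mice. Gas5 less its 10 inside models was lower in heart by -1.65 (adjusted p = 1.13e-06) in QKO mice and -1.64 (adjusted p = 3.1e-05) in WT mice. For both hosts the tissue difference was thus present in the RNA outside the snoRNAs. A pair of overlapping Snord80 models in Gas5 had equal counts in 10 of 16 libraries and differed by at most 5 counts elsewhere, so reads were counted for each model they overlapped. Both are among the 10 models, so Snord80 reads were taken off Gas5 for each. These models totalled 287 and 276 counts in livers and 76 and 69 in hearts.

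Neat1 has a short and a long isoform that share a start, and 3 short models lie within 1192 bases of its 5′ end. Their summed count was 3.96 to 5.04% of the Neat1 count in QKO hearts and 3 to 5.62% in WT hearts. In QKO livers it was 4.32, 3.72, 3.15 and 2.23%, and in WT livers 3.98, 5.7, 2.88 and 2.8%. QKO liver 4, with the most Neat1 of the livers, had the smallest share of counts near the 5′ end of all 16 libraries, while QKO heart 3, with the most Neat1 of the hearts (358 CPM), had a share of 4.22%, in the middle of the hearts. Isoforms were not counted separately in the table, and this share was not tested between groups.

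**Figure D5:**
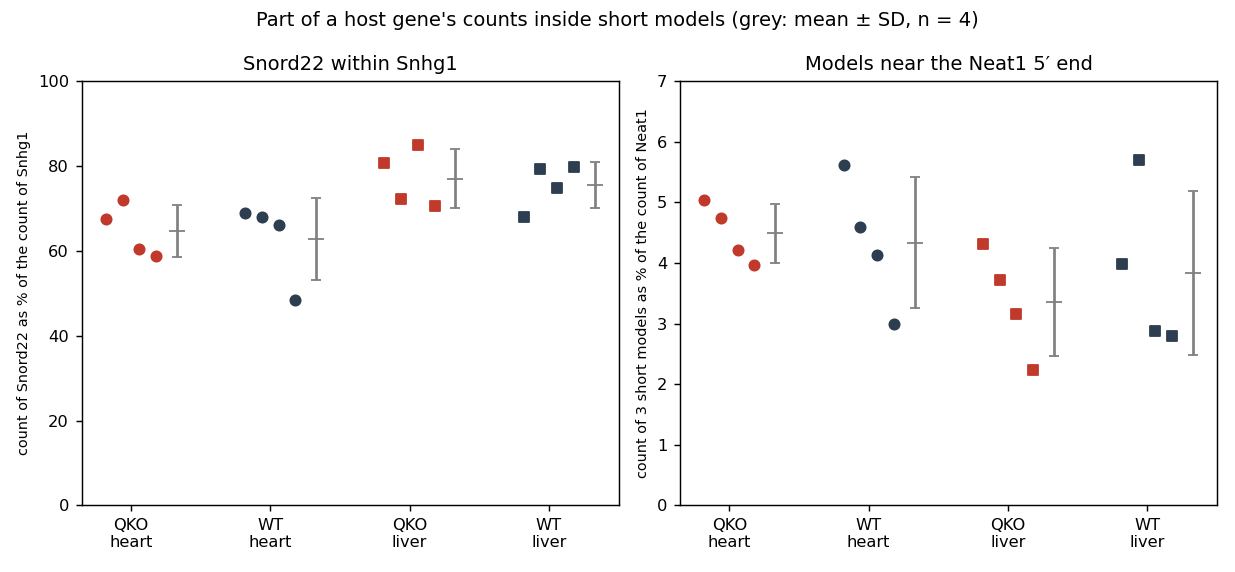
Left, the count of Snord22 as a percentage of the count of its host Snhg1. Right, the summed count of 3 short models near the 5′ end of Neat1 as a percentage of the Neat1 count. Points are libraries, QKO in red and WT in dark blue, hearts as circles and livers as squares, and grey marks give mean ± SD (n = 4). Snord22 made up 48.3 to 84.9% of the Snhg1 count, and the Neat1 share was lowest, at 2.23%, in QKO liver 4.

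The genes most alike to each member were sought after group means had been removed, so that tissue and genotype played no part. Over the 16 libraries Malat1 was most like Irf2 (r = 0.906), Huwe1 and Zeb1 (both r = 0.867), and Neat1 most like Tbc1d14, Capza1 and Pik3cg (r = 0.903 to 0.906). H19 was most like Mylpf (r = 0.973), Tcap (r = 0.965) and Ldhb (r = 0.958), of which Mylpf and Tcap are genes of the muscle sarcomere, and WT liver 4 is the far point of H19. Kcnq1ot1 was most like Scaf11, Ddhd2 and Ccnt1 (r = 0.894 to 0.921), and Gas5 most like Ergic2, Ier3ip1 and Matr3 (r = 0.877 to 0.889). Snhg1 was most like its own Snord22 (r = 0.966), Snora44 (r = 0.944) and Snord118 (r = 0.942). Over the 8 hearts Meg3 was most like Cth and Zfp697 (both r = 0.981) and Dhtkd1 (r = 0.962), and Rian most like Chpt1 (r = 0.976), Cyp2a12 and Ccbe1 (r = 0.964). These are the highest of 11807 correlations (11203 in hearts), and the libraries share depth and composition.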

How the data were processed

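The deposited table holds raw counts per Ensembl gene for 16 libraries. Per the labels' protocols the authors used a stranded total RNA kit with rRNA depletion and paired reads of 75 bases; per the submitters' processing notes (mm10) cutadapt, HISAT2 and featureCounts were used, in an order, versions and with strand and annotation settings not given in the sources used here. Depth was 37.9 to 72.6 M counts per library. The printed intervals give the range of differences compatible with the data and are not limits of detection. The smallest difference that could have passed the threshold was not computed. Of 48709 identifiers 48349 matched GENCODE M21 (GRCm38). The members and gene lists were chosen with earlier results of these data known. Each comparison was fitted over all genes with edgeR 4.0.16 (R 4.3.3): filterByExpr, TMM, quasi-likelihood F test, Benjamini-Hochberg at 0.05; SE is the log2 fold change over the root of F. QKO and WT were compared without a replicate block in each tissue, and heart and liver without an animal block. DESeq2 1.42.0, limma 3.58.1 (voom), other scalings, filters, blocks and left-out libraries were alternatives. Named genes were all 8 members, the 4 Msr genes, list genes past the threshold or else up to 2 with the largest change (in heart against liver, where most genes passed, 1 or 2 of these), tested neighbours within 100 kb (up to 4, of which some are given), and the 3 most alike genes; a few genes that this rule names are not reported here. Likeness used log2(CPM + 0.5) and genes at 1 CPM or more. Ratios used counts + 0.5. Scripts were tested on simulated counts. Replicates of 1 group differed far beyond sampling noise in all 24 pairs (chi-square per degree of freedom 26.3 to 3280). Heart and liver of the same number had correlations of deviations of 0.062 to 0.184. All 4 WT hearts and 3 of 4 QKO hearts were most like the liver of their own number. QKO heart 4 was most like QKO liver 3, at 0.108 against 0.073 with its own.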

Additional observations from a re-analysis of the deposited data

Results flagged for a closer look

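In groups of 4, the libraries below lay far enough from the other 3 to pass Dixon's 95% critical value for 4 samples, which chance alone passes in about 1 in 20 groups; 6 of 40 groups examined did. Neat1 was at 310 CPM in QKO liver 4 against 63.8 to 91.4 CPM in the other QKO livers. H19 was at 14.7 CPM in WT liver 4 against 0.108 to 0.374 CPM in the other WT livers. Snhg1 was at 30.2 CPM in WT liver 4 against 12.8 to 13.8 CPM in the others, and Snord22 was 79.8% of the Snhg1 count there. Rian was at 3.25 CPM in WT heart 4 against 4.06 to 4.17 CPM in the other WT hearts. Kcnq1ot1 was at 71.2 CPM in QKO heart 3 against 55.8 to 57.7 CPM in the other QKO hearts. The share of Snord22 in the Snhg1 count was 48.3% in WT heart 4 against 66 to 68.8% in the other WT hearts. WT heart 4 also differed from the other WT hearts in its ribosomal RNA share, 7.37% against 38.4 to 56.9%; its part in the Rian and Snord22 values was not tested.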

How the results depend on the processing

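Of 1065 alternative values for 61 results, 997 kept their direction and their side of the threshold, and no member passed between QKO and WT under any of 23 settings in heart and 24 in liver. The leave-out of WT liver 4 with QKO liver 2, the unscaled library totals and the host counts less inside genes were chosen after seeing the data; the cause of each change below was not tested.
Genes passing between QKO and WT numbered 15 in liver, but 50 with DESeq2, 9 among protein-coding genes and members, and 44 with all 16 libraries in 1 fit. In heart they numbered 28, but 64 with DESeq2, 102 without a filter, 50 with a replicate block (numbers not shown to pair animals), 12 without scaling factors, 16 with all libraries in 1 fit and 18 to 25 without 1 library. Deviations of QKO and WT hearts of the same number had correlations of 0.066 to 0.478. Every QKO heart was most like the WT heart of its own number, but WT heart 3 was most like QKO heart 2 (0.070). Livers did not pair by number. For heart minus liver, 1 gene passed, but 13 with DESeq2, 2 without a filter, 0 with the animal as replicate block, 85 without scaling factors and 1 to 2 without 1 animal.
QKO over WT in liver (log2), H19 was 0.13 with a replicate block. Without WT livers 3 and 4, Meg3 was 0.50, H19 1.02 and Kcnq1ot1 0.095; without WT liver 4 and QKO liver 2, H19 was 0.76 and Gas5 0.033. In heart without scaling factors, Neat1 was 0.061, Rian 0.090 and Kcnq1ot1 0.056. Neat1 in heart was 0.022 with totals lacking rRNA and mitochondrial genes, 0.0012 with the animal series as a term and 0.18 without hearts 4, where H19 was 0.039 and its ratio to Igf2 differed by 0.16.
Heart over liver in WT without scaling factors, 3 members passed in place of 7, H19 was -0.64 and Kcnq1ot1 -0.26. The animal as replicate block brought Neat1 in QKO to 1.30 (adjusted p = 0.00766) and changed no other member's call. For heart minus liver, Gas5 was 0.13 without scaling factors and 0.0022 with totals lacking rRNA and mitochondrial genes.
Leaving out 1 library or animal gave, QKO over WT in liver, Neat1 -0.35 to 0.79, H19 -3.17 to 1.405 and Snhg1 -0.046 to 0.62; in heart, Neat1 -0.20 to 0.10; heart over liver in WT, H19 -0.33 to 3.73; and heart minus liver, Malat1 -0.025 to 0.22, Neat1 -0.92 to 0.42, Meg3 -0.33 to 0.63, H19 -1.51 to 2.85, Kcnq1ot1 -0.0021 to 0.39 and Gas5 -0.42 to 0.061. Log2 ratios, QKO minus WT, ran for Rian to Meg3 in liver from -0.73 to 0.33, H19 to Igf2 from -0.25 to 1.504 in liver and -0.17 to 0.12 in heart, Snhg1 to Gas5 in heart from -0.030 to 0.22, and Kcnq1ot1 to Kcnq1 in heart from -0.32 to 0.0017. Counts of 7 to 59 limit Meg3 and Rian in livers.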
